A study of Mus musculus with 4 samples.

Results

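Plasmacytoid dendritic cells are bone marrow-derived immune cells that sense viral nucleic acid through endosomal Toll-like receptors and answer with large amounts of type I interferon. Their fate is set by the E protein Tcf4 together with Bcl11a, Spib, Runx2 and Irf8, and Siglech, a sialic acid-binding receptor that signals through the adaptor Tyrobp, marks them in the mouse. In bone marrow, Ly6d and Il7r are known from lymphoid-primed progenitors that can give rise to these cells, and Ccr9 and Klk1 from later stages.

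The cells described here are the Siglech-positive cells of the Lin-/CD11b+ sort, which joined lineage-negative progenitors and CD11b+ cells of mouse bone marrow, in single-cell RNA sequencing on a droplet platform. Control mice were Cre-negative Tet2 fl/fl littermates, and Tet2 KO mice carried Tet2 fl/fl with Mx1-Cre. Mx1-Cre is switched on by interferon and acts in blood cells and in other tissues. All mice, controls included, had received 4 intraperitoneal doses of pI:pC at 12.5 ug/g, and pI:pC, a mimic of double-stranded RNA, itself induces interferon. The study used male and female mice of 8 to 12 weeks. Each genotype had 1 library of this sort, which allows no test. Genotype, mice, preparation and library cannot be told apart in any difference given here. All intervals are 95% intervals that cover counting error only.

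A cell was a member if it held at least 2 UMIs of Siglech (a unique molecular identifier, UMI, marks 1 captured RNA molecule), at least 1 UMI of Cd7 and Ly6d together, and Jchain below 0.3% of its UMIs, a limit that keeps out antibody-secreting cells. The rule gave 177 cells of 4992 in this sort and of 8969 in all 4 libraries. There were 84 of 1924 control cells (4.37%, exact binomial interval 3.50% to 5.38%) and 93 of 3068 Tet2 KO cells (3.03%, 2.45% to 3.70%). The GMP sort (granulocyte-monocyte progenitors) held 0 of 1258 control and 0 of 2719 Tet2 KO cells that met the rule, which, at a limit of 3 counts of the total, allows shares of up to 0.238% and 0.110%. The gates of the sort and the depth of each cell both enter these shares. After each cell was thinned to 5000 UMIs, the rule took 3.43% of control and 1.99% of Tet2 KO cells.

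Because the members were chosen by their Siglech, Cd7, Ly6d and Jchain UMIs, levels of these genes are given as a description only, and so are all levels set against other cells. Siglech ranged from 2 to 12 UMIs per cell (median 4) in the control and from 2 to 10 (median 3) in the Tet2 KO library, and 23 and 36 cells sat at the threshold of 2. Those 23 control and 36 Tet2 KO cells held 1698 and 1351 CPM (UMIs summed over the cells and scaled to the same total for each set of cells) of Bst2 and 417 and 370.0 CPM of Tcf4. Just outside the rule lay 34 and 59 cells with 1 UMI of Siglech, with 1039.5 and 1043 CPM of Bst2 and 258 and 233 CPM of Tcf4. A further 3 control and 4 Tet2 KO cells had 2 or more Siglech UMIs but neither Cd7 nor Ly6d. The Jchain limit removed 1 control cell, and no member exceeded 0.0409% Jchain.

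The members held 674324 UMIs in the control and 848846 in the Tet2 KO library, with medians of 6953.5 and 8492 UMIs and 2263 and 2459 genes per cell. Median mitochondrial shares were 2.59% and 2.66%, with 1 and 4 cells at 5% or more. Of the cell barcodes, 7 occurred in both libraries of this sort and none was a member in both. Cells rich in S100a8 and S100a9 were taken whatever their Siglech count. Of these, 4 of 161 control (2.48%, median depth 8976 UMIs) and 1 of 254 Tet2 KO cells (0.394%, 9249 UMIs) held a Siglech UMI. Among those cells with Siglech were 3 control members and 1 Tet2 KO member, so these shares do not measure Siglech outside the members. Igkc, an antibody light chain gene, was detected in 83 of 84 and 89 of 93 cells, with 571 and 538 CPM, against 54326 and 30435 CPM in cells with no Siglech UMI.

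Tet2 itself had 20 UMIs in the control and 32 in the Tet2 KO members (29.7 and 37.7 CPM). The counts are per gene and do not show whether they come from the deleted part, so they do not check the genotype. Cell numbers in a supplement of the study stand against other libraries than in the deposited cell table, which sets control and Tet2 KO throughout this text. By that table, Ctse was at 38.4 and 50.7 CPM in the control libraries of this sort and the GMP sort and at 3.12 and 1.65 CPM in the Tet2 KO libraries. Rpgrip1 was at 4.41 and 0.743 CPM in the control and 35.5 and 34.4 CPM in the Tet2 KO libraries. Cells rich in S100a8 and S100a9 were 8.37% and 8.28% of the libraries of this sort and 0.0795% and 0.441% of the GMP libraries, control first. In these values the libraries paired by genotype and by sort as that table has them. Ctse and Rpgrip1 were picked with earlier results of these data known. Their split therefore cannot check the assignment or show which libraries are Tet2 KO. Xist, the RNA of the silenced X chromosome, stood at 2477 and 2502 CPM.

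The proximal promoters of Siglech, Cd300c and Runx2, among the genes that lead the members, are shown because Tcf4, the E protein of this lineage, is known to bind E-box letters. Each is the RefSeq window from 250 bases before to 50 bases after the gene start in GRCm38.p6, printed 5′ to 3′ on the gene's strand, with CAGGTG or its reverse complement CACCTG in capitals. Siglech lies on the plus strand at chr7:55767934-55768233, Cd300c on the minus strand at chr11:114960458-114960757, and Runx2, which holds no match, on the minus strand at chr17:44814578-44814877.
Siglech: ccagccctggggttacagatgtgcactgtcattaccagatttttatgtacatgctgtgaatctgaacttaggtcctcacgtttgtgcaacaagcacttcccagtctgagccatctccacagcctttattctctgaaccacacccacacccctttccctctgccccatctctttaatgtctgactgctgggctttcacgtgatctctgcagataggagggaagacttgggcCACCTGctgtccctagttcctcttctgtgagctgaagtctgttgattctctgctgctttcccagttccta
Cd300c: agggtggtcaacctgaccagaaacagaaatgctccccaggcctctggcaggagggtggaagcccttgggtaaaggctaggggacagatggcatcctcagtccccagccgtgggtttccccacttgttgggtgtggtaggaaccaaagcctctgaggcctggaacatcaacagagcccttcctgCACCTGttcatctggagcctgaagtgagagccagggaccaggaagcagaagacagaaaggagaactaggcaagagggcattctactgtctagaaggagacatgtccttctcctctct
Runx2: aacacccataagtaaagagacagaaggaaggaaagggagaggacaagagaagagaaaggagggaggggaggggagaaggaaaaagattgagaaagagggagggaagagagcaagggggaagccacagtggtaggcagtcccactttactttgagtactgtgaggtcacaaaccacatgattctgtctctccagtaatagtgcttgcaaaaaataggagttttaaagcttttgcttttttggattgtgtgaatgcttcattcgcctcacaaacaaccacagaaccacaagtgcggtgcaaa
The letters began 20 bases before the start of Siglech and 67 bases before that of Cd300c. Of 30 leading genes, described below, 23 had a window in the table, and 7 of these 23 (30.4%) held the letters in at least 1 window, against 6098 of 27025 genes (22.6%) with a window searched. The windows of Flt3, Il7r and Bcl11a also lacked these letters. A match describes the sequence and does not show binding.

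The label of the cells was set against markers that the rule did not use. Of these, Cox6a2 and Runx2 were named together with the rule, with earlier results of these data known. Their levels are therefore a description and do not check the label. Cox6a2, a cytochrome c oxidase subunit otherwise known from striated muscle, stood at 1014 CPM in control and 794 CPM in Tet2 KO members, against 14.3 and 16.2 CPM in cells of the same library with no Siglech UMI. Runx2 was at 273 and 316 CPM, 11.2-fold and 11.6-fold above those cells. Tcf4 was at 421 and 428 CPM, 9.86-fold and 10.0-fold above. Bst2, the tetherin that plasmacytoid dendritic cells carry at high density, was at 1803 and 1590.4 CPM, and it was detected in 84 of 84 and 93 of 93 members. All these markers were thus present in both libraries, and the levels of Tcf4 and Bst2 do not go against the label.

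Ccr9 and Klk1, known from later stages, were sparse. Ccr9, the gut-homing chemokine receptor, had 13 and 9 UMIs (19.3 and 10.6 CPM), in 9 and 7 cells. The kallikrein gene Klk1 had 5 UMIs in the control and 0 in the Tet2 KO library. Ly6c2, which monocytes and mature plasmacytoid cells express, was not sparse, at 611 and 598 CPM. It was lower than in cells with no Siglech UMI, at 1713 and 1779.6 CPM. Those are a mixed set of cells, so this comparison does not place the members by stage. The gates of the sort may bear on which stages were taken, which was not tested. Itgam, the gene of CD11b, was at 20.8 and 22.4 CPM, close to 22.6 and 27.9 CPM in the other cells.

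**Figure D1:**
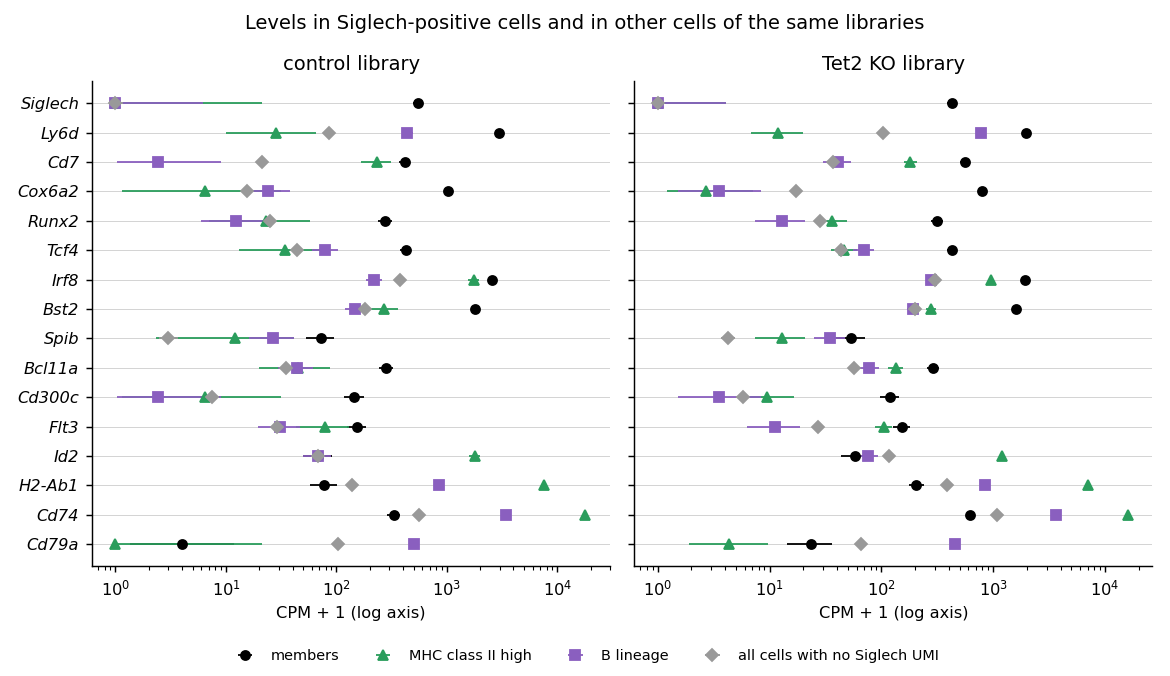
Summed CPM plus 1 on a log axis for 16 genes in Siglech-positive cells (black circles), MHC class II high cells (green triangles), B lineage cells (purple squares) and all cells with no Siglech UMI (grey diamonds), with control on the left and Tet2 KO on the right. Bars are exact Poisson intervals at 95%. In both libraries Cox6a2, Runx2, Tcf4 and Bst2 lay highest in the Siglech-positive cells, and Id2, H2-Ab1 and Cd74 in the MHC class II high cells. H2-Ab1 and Cd74 were among the genes that chose the MHC class II high cells.

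MHC class II high cells (1% or more of UMIs from Cd74, H2-Aa, H2-Ab1 and H2-Eb1) and B lineage cells (3 or more UMIs of Cd79a and Cd79b), both without Siglech, numbered 28 and 62 in the control and 145 and 104 in the Tet2 KO library. Irf8, a factor shared by dendritic lineages, was at 2568 and 1917 CPM in the Siglech-positive cells and at 1740 and 955 CPM in the MHC class II high cells. Id2, the inhibitor of E proteins that conventional dendritic cells use, went the other way, with 66.7 and 57.7 CPM against 1784 and 1197 CPM. Cd74, the invariant chain, was at 328 and 618 CPM against 17772 and 16123 CPM. It was 1 of the genes that chose the MHC class II high cells, so its high level there follows from the choice. Spib was at 71.2 and 53.0 CPM in Siglech-positive, 11.0 and 11.8 CPM in MHC class II high and 25.6 and 33.8 CPM in B lineage cells. Zbtb46, a conventional dendritic cell factor, had 2 and 1 UMIs in the members, and the B-cell receptor component Cd79a 2 and 19 UMIs. The defining T-cell marker Cd3e had 1 and 0 UMIs.

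The 30 leading genes of the members were those highest over cells with no Siglech UMI in both libraries, ranked by the lower of the 2 ratios with an offset of 10 CPM, and the lowest fold among them was 4.24. Besides Siglech, Ly6d and Cd7, which chose the cells, they included surface proteins. Atp1b1, a sodium pump subunit, was at 156 and 120 CPM against 4.92 and 4.91 CPM. Cd300c, an Ig-like receptor, was at 144 and 118 CPM against 6.47 and 4.76 CPM. Klrd1 (CD94), known from NK cells, was at 209 and 242 CPM against 10.4 and 20.8 CPM. Il7r, the receptor for the lymphoid cytokine IL-7, was at 78.6 and 64.8 CPM against 4.27 and 4.63 CPM, and Flt3, the receptor whose ligand drives dendritic cell development, was at 153 and 151 CPM against 27.9 and 26.3 CPM. Among intracellular proteins, Ccnd1 (cyclin D1) was at 206 and 151 CPM against 10.2 and 11.4 CPM, and Upb1, a pyrimidine breakdown enzyme, was at 228 and 160 CPM against 27.7 and 13.7 CPM. Hes6, Bcl2, Rnase6, Kmo, Jaml, Nucb2, Tmem229b, Tns1, Net1, Cnp, Tex2, Atp2b4 and Fgr were also among the 30, as was AC140186.1, a gene known here only by its identifier, at 844 and 666 CPM, 28.8-fold and 30.2-fold above.

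Factors of the lineage were present together. Of 22 listed transcription factors of plasmacytoid dendritic cells, 18 had at least 20 UMIs, and 11 of these were 2-fold or more above cells with no Siglech UMI in both libraries, against 10.1% of all 6266 genes with at least 20 UMIs. Bcl11a was at 280.3 and 287 CPM against 34.0 and 56.0 CPM. Mef2c, which acts in lymphoid and dendritic cells, was at 406 and 412 CPM against 114 and 107 CPM, and Cbfa2t3 (Eto2), a corepressor that acts with Tcf4, at 187 and 192 CPM against 52.2 and 71.5 CPM. Zeb2 was at 172 CPM in both libraries, 1.62-fold and 1.53-fold above. Of 41 listed surface and identity genes, 25 of the 33 with at least 20 UMIs were 2-fold or more above.

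Sensors and effectors were uneven. Unc93b1, the chaperone that brings Toll-like receptors to the endosome, was at 387 and 297 CPM, while Tlr7 had 4 and 9 UMIs and Tlr9 1 UMI in each library. Irf7, the factor that amplifies interferon transcription, was at 32.6 and 34.2 CPM. Of 30 listed interferon and cytokine genes, 15 are in the count table, 7 of these had 0 UMIs in the members, and 3 reached 20 UMIs. Those 3 were Il12a, Ccl4 and Ccl5. Il12a, a subunit of IL-12 and IL-35, had 60 UMIs over 27 control cells and 33 UMIs over 22 Tet2 KO cells. Ccl4, a chemokine, had 39 UMIs over 24 cells and 12 UMIs over 7 cells. Ccl5 was not comparable, since 70 of its 73 control UMIs came from 1 cell.

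Cell cycle genes were higher than in cells with no Siglech UMI. Those are a mixed set that holds cells rich in S100a8 and S100a9 and antibody-secreting cells. The values therefore do not compare the members with progenitors or with other dendritic cells alone. All 34 listed genes were above cells with no Siglech UMI in both libraries, where 67.1% of all 6266 genes were, and 9 were 2-fold or more above. Their sum was 5963 CPM in control and 5654 CPM in Tet2 KO members, against 3114 and 3031 CPM. Top2a, the topoisomerase of dividing cells, was detected in 71.4% of control members (69.0% when thinned to 5000 UMIs) and in 76.3% (73.1%) of Tet2 KO members, against 44.2% and 43.4% of thinned cells with no Siglech UMI.

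The members were not uniform. Ly6d ran from 0 to 96 UMIs per cell (median 15.5) in the control and from 0 to 161 (median 7) in the Tet2 KO library. Cox6a2, which the rule did not use, ran from 0 to 30 (median 5.5) and from 0 to 39 (median 2). Across cells thinned to 5000 UMIs, Spearman's rho of Ly6d with Cox6a2 was 0.658 over 84 control and 0.559 over 93 Tet2 KO cells. Ly6d and Cd7 gave -0.1 and -0.276, a pair in which the rule asks for at least 1 UMI of either. These are descriptions over cells of 1 library each, which share its preparation. Cox6a2 with AC140186.1 gave -0.0549 and 0.0264, so not all leading genes moved together over cells.

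**Figure D2:**
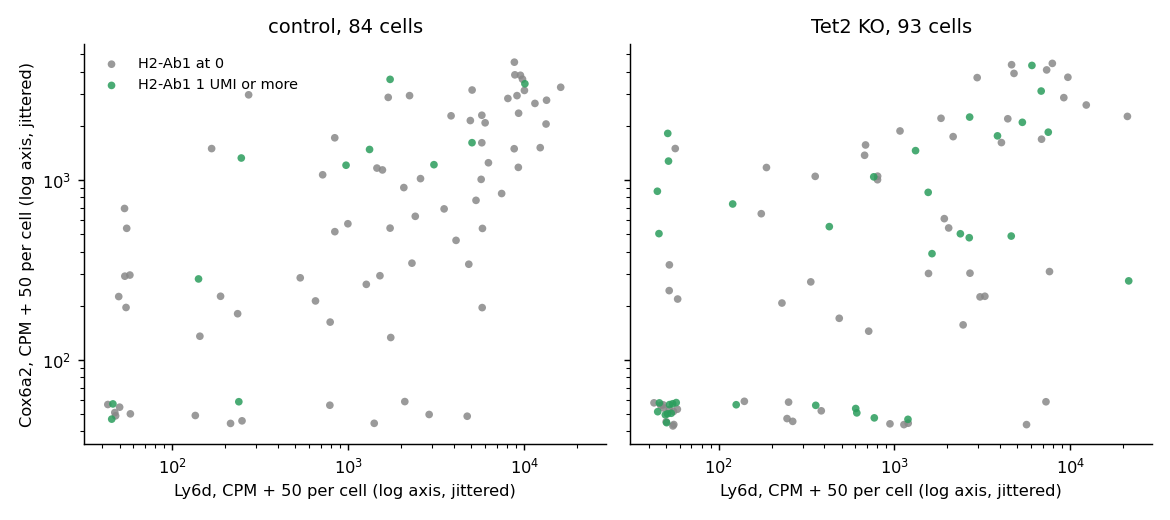
Ly6d (horizontal) against Cox6a2 (vertical) in each Siglech-positive cell, as CPM of the cell plus 50 on log axes, with a small random shift to part overlapping points, 84 control cells on the left and 93 Tet2 KO cells on the right. Green points held at least 1 UMI of H2-Ab1. Cells at 0 for both genes, in the lower left corner, numbered 7 in the control and 19 in the Tet2 KO library.

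Ly6d and Cd7 were both detected in 49 control (58.3%) and 52 Tet2 KO cells (55.9%). Ly6d without Cd7 was found in 22 (26.2%) and 14 (15.1%) cells. Cd7 without Ly6d was found in 13 control cells (15.5%, exact binomial interval 8.51% to 25.0%) and 27 Tet2 KO cells (29.0%, 20.1% to 39.4%), and these intervals overlap. As the rule needs 1 of both genes, the cells with Ly6d at 0 are the same as those with Cd7 alone.

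Cells with Ly6d at 0 had less of several leading genes. Among the factors, Tcf4 was at 355 CPM in the control and 296 CPM in the Tet2 KO library, against 434 and 478 CPM in cells with Ly6d, and the 22 listed factors summed to 4992 and 4172 CPM against 5182 and 4730.0 CPM. Irf8 was at 2674 and 1561 CPM against 2549 and 2054 CPM. For Tcf4, Irf8 and the sum the intervals were apart in the Tet2 KO library and overlapped in the control. Bst2 was at 1589 CPM in the control and 1561 CPM in the Tet2 KO library, against 1844 and 1602 CPM in cells with Ly6d, and Runx2 was at 224 and 292 CPM against 282 and 325 CPM. Cox6a2 was at 187 and 212 CPM against 1170 and 1019 CPM. Ctsl, the lysosomal protease cathepsin L, was at 18.7 and 42.3 CPM against 231 and 98.0 CPM. Lymphoid genes were lower too: Il7r was at 37.4 and 16.9 CPM against 86.4 and 83.3 CPM. Dntt, the polymerase that adds bases at antigen receptor joints, was at 74.8 and 42.3 CPM against 145 and 98.0 CPM. In the Tet2 KO library, 1 cell with Ly6d held 33 of the 60 Dntt UMIs of its kind. Of the 10 Dntt UMIs with Ly6d at 0, 7 came from 1 cell, so the Tet2 KO difference in Dntt rested on few cells. The intervals of Bst2, Runx2 and Dntt in both libraries, of control Il7r and of Tet2 KO Ctsl overlapped between the 2 kinds of cell. Not all leading genes were lower with Ly6d at 0. Cd300c was at 168 and 140 CPM against 139 and 109 CPM, and Bcl11a at 215 and 309 CPM against 293 and 279 CPM, with overlapping intervals throughout.

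Other genes were higher where Ly6d was 0. Crip1, a LIM protein, was at 3179 and 3935 CPM against 1881 and 1678 CPM. Lgals3 (galectin-3) was at 552 and 863 CPM against 273 and 251 CPM. Both are in the list of transitional dendritic cell markers, whose 8 genes summed to 3983 and 5568 CPM against 2327 and 2229 CPM. Crip1 and Lgals3 made up most of each sum, so the sums say little about the rest of the list. Of the others, 2 were sparse over all members, with 6 and 10 UMIs of Ltb and 0 and 1 of Axl. Upb1 was at 337 and 245 CPM against 208 and 127 CPM, and Id2 at 112 and 93.1 CPM against 58.2 and 44.1 CPM, with overlapping intervals for Id2 in both libraries and for Upb1 in the control. The summed MHC class II list differed by library: it was at 1159 CPM against 1179 CPM in the control, and at 3545 CPM against 1283 CPM in the Tet2 KO library. Cell cycle genes summed to 5656 and 4307 CPM against 6021 and 6173 CPM.

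**Figure D3:**
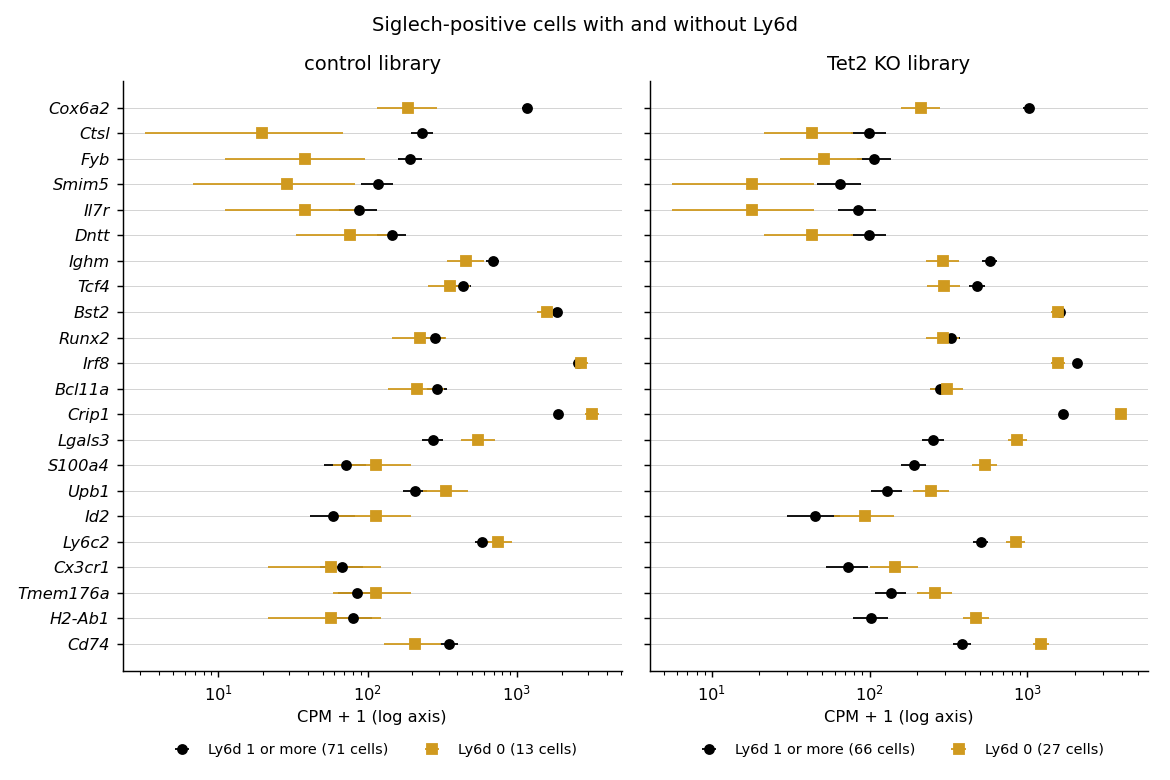
Summed CPM plus 1 on a log axis for 22 genes in Siglech-positive cells with Ly6d (black circles) and without it (ochre squares), with exact Poisson intervals at 95%, control on the left and Tet2 KO on the right. Cox6a2 lay lower and Crip1 and Lgals3 higher without Ly6d in both libraries, and H2-Ab1 and Cd74 lay higher without Ly6d in the Tet2 KO library and not in the control library.

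Between genotypes, most genes were close. Among 1953 genes with at least 100 UMIs over both libraries the median log2 ratio of Tet2 KO over control on CPM + 1 was 0.01. On that scale 36 genes (1.84%) were 1.5-fold or more higher and 53 genes (2.71%) 1.5-fold or more lower in Tet2 KO members. With 1 library per genotype, these are counts past a fold and not calls of a test.

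A few cells set many of the extreme values. The 7 lowest ratios were those of the neutrophil granule and alarmin genes Ltf, Ngp, Camp, Lcn2, S100a8, S100a9 and Wfdc21. S100a8 was at 3961 CPM in control and 816 CPM in Tet2 KO members, and 97.5% of its control UMIs came from 3 cells. Camp had 522 control UMIs, of which 504 came from 3 cells. Elane, Ctsg and Mpo, primary granule genes of myeloid progenitors, were among the 15 highest, and 3 Tet2 KO cells held 79.9% of the Elane UMIs. The 95 Apoe UMIs of the Tet2 KO library came from 8 cells, with 89 of them in 3 cells. In all, 4 control and 5 Tet2 KO members held at least 100 UMIs of S100a8 and S100a9 or at least 50 UMIs of Elane, Mpo, Ctsg and Prtn3. Without these 9 cells, a limit chosen after the data were seen, 33 of 1830 genes (1.80%) were higher and 35 (1.91%) lower, of which 26 and 30 were among those above. The summed neutrophil markers were then at 271 and 260.2 CPM, against 8754 and 1619 CPM with them. No doublet caller was run, and the part of doublets in these cells was not tested.

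**Figure D4:**
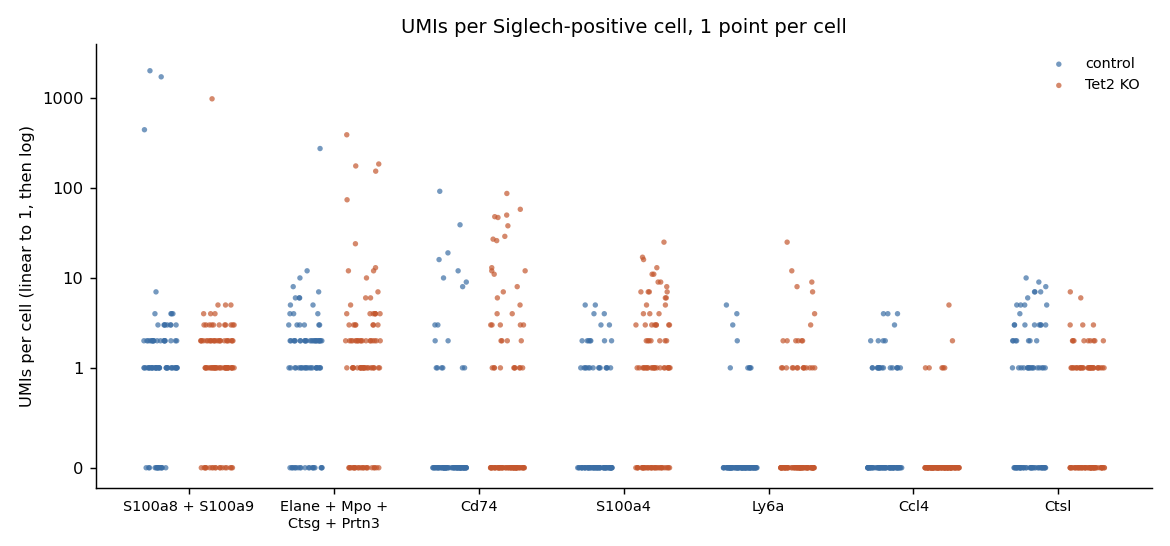
UMIs per Siglech-positive cell, 1 point per cell with a small sideways shift, on a scale that is linear up to 1 and logarithmic above, control in blue and Tet2 KO in red. S100a8 and S100a9 together reached 100 UMIs or more in 3 control cells and 1 Tet2 KO cell, whereas the S100a4 and Ctsl UMIs were spread over many cells.

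Several of the 15 highest genes remained past 1.5-fold without these 9 cells, among them S100a4, Ly6a, Ccr2, Anxa5 and Tmem176a. S100a4, a calcium-binding protein of motile cells, had 52 UMIs in 27 of 84 control cells and 243 UMIs in 59 of 93 Tet2 KO cells. Its levels of 77.1 and 286 CPM gave a log2 ratio of 1.89 (exact conditional interval 1.46 to 2.35). Ly6a (Sca-1), a surface protein that interferon induces, was at 28.2 and 111 CPM, a log2 ratio of 1.97 (1.25 to 2.77), and was detected in 9 and 27 cells. Of its Tet2 KO UMIs, 48.9% came from 3 cells. Ccr2, a chemokine receptor for egress from marrow, was at 41.5 and 131 CPM, a log2 ratio of 1.66 (1.05 to 2.31), in 16 and 39 cells. Anxa5 was at 105 and 203 CPM and Tmem176a at 89.0 and 170 CPM, with log2 ratios of 0.94 and 0.93. In cells with no Siglech UMI the log2 ratio was 0.98 for S100a4, 0.56 for Ly6a and 0.75 for Ccr2, so these genes were higher in the Tet2 KO library there too, by less. That difference between cell groups was not tested.

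Thinned to 5000 UMIs per cell, S100a4 was detected in 25.0% of control and 51.6% of Tet2 KO members, Ccr2 in 14.3% and 31.2%, and Ly6a in 9.52% and 28.0%, so the order held at equal depth. Among members with Ly6d, the log2 ratio on CPM + 1 was 1.41 for S100a4, 2.03 for Ly6a and 1.36 for Ccr2. Split by Cox6a2 instead, S100a4 was at 70.2 and 124 CPM in the 68 and 58 members with Cox6a2 and at 109.6 and 536 CPM in the 16 and 35 without it. Ccr2 was at 41.4 and 46.6 CPM with Cox6a2 and at 42.1 and 260.5 CPM without it. Ly6a was at 32.4 and 153 CPM with Cox6a2 and at 8.43 (1 UMI) and 44.9 CPM without it. The 3 Tet2 KO cells with most Ly6a all held Cox6a2 and gave 46 of the 79 UMIs behind 153 CPM. Among them, the cell with 25 Ly6a UMIs also held 264 UMIs of Lyz2 and 49 of Apoe. The Ccr2 difference between genotypes thus lay in members without Cox6a2, which were 19.0% of control and 37.6% of Tet2 KO members. Ly6a was higher in Tet2 KO members with Cox6a2. Without Cox6a2 its intervals overlapped between the libraries, and 8 of the 15 Tet2 KO UMIs came from 1 cell.

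MHC class II genes, which present peptides to helper T cells, were higher in Tet2 KO members in total. Of 10 listed genes, 6 had at least 100 UMIs, and 3 of these, H2-Ab1, H2-Eb1 and Cd74, were 1.5-fold or more higher, none lower. The median log2 ratio over 8 genes with at least 20 UMIs was 0.69, beside -0.0025 over all 6266 such genes. In cells with no Siglech UMI these were 0.78 and 0.09. H2-Ab1 had 51 UMIs in 11 control cells and 174 UMIs in 35 Tet2 KO cells (75.6 and 205 CPM), a log2 ratio of 1.44 (0.98 to 1.92). Cd74 was at 328 and 618 CPM, a log2 ratio of 0.92 (0.69 to 1.15), in 18 and 38 cells. H2-DMa, the peptide exchange subunit detected in 78 and 86 cells, was at 418 and 545 CPM, a log2 ratio of 0.38 (0.17 to 0.60).

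Ly6d classes differed in MHC class II. In cells with Ly6d, H2-Ab1 was at 79.3 and 101 CPM and Cd74 at 351 and 387 CPM, and the list's median log2 ratio was 0.14. These values rested on 1 control cell with 24 UMIs of H2-Ab1 and 92 of Cd74, without which, a choice made after the data were seen, control H2-Ab1 was at 38.0 CPM, control Cd74 at 194 CPM and the median at 0.65. H2-Ab1 was detected in 9 of 71 and 22 of 66 cells with Ly6d. In the 13 and 27 cells with Ly6d at 0, H2-Ab1 was at 56.1 and 474 CPM and Cd74 at 206 and 1218 CPM, and H2-Ab1 was detected in 2 and 13 of them. With Siglech at 3 or more UMIs the median was 0.40, and with Siglech at 1 or more 1.21. The value rested on few control cells, since 72.5% of the control UMIs of H2-Ab1 came from 3 cells. Without the 5% of members with most UMIs the median was 1.54. The B-cell marker sum was 218 and 240.3 CPM and the conventional dendritic cell sum 394.5 and 391 CPM, with Zbtb46 at 2 and 1 UMIs. Other marker sums were higher in Tet2 KO members: monocyte markers summed to 2049 and 2506 CPM (1770.0 and 2497 CPM without the 9 cells), transitional dendritic cell markers to 2589 and 3158 CPM, and macrophage markers to 13.4 and 117 CPM, most of it Apoe from few cells. Their part in the MHC class II, S100a4, Ccr2 and Ifitm3 values was not tested.

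Interferon-stimulated genes were higher by less. Of 65 listed genes, 12 had at least 100 UMIs, with 4 of them 1.5-fold or more higher and none lower, and the median over 30 genes with at least 20 UMIs was 0.27, against 0.47 in cells with no Siglech UMI. The 4 were Ifitm1, Ifitm2, Ifitm3 and Ifi27l2a. Ifitm3, which blocks viral entry, was at 136 and 262 CPM, a log2 ratio of 0.94 (0.58 to 1.31), and was detected in 18 and 41 cells. In members with Cox6a2 it was at 153 and 149.6 CPM, and in those without at 59.0 and 434 CPM. Few cells weighed on these values: 3 cells held 64.1% of the control and 44.6% of the Tet2 KO Ifitm3 UMIs. In the control, 1 cell with Cox6a2 held 33 of the 85 UMIs of its class. Tet2 KO cells with 34 and 41 UMIs made up much of the 145 UMIs without Cox6a2. Ifi27l2a was at 479 and 739 CPM, 0.62 (0.43 to 0.82), in 59 and 72 cells. Isg15 had 10 and 35 UMIs, 1.48 (0.43 to 2.65). Broadly detected genes differed little: Ly6e was at 1468 and 1530.3 CPM, 0.06 (-0.06 to 0.18), and Bst2, itself interferon-inducible, had a log2 ratio of -0.18 (-0.29 to -0.07). The interferon receptor gene Ifnar2 was at 187 and 173 CPM, -0.11 (-0.46 to 0.25). MHC class I genes had a median of 0.16 over 17 genes, against 0.31 in cells with no Siglech UMI, with 1 of 14 genes past 1.5-fold, H2-Q7 at 93.4 and 148 CPM.

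Genes of the lineage differed in both directions between the libraries. Tcf4 had a log2 ratio of 0.02 (-0.21 to 0.25), Runx2 of 0.21 (-0.07 to 0.49), Bcl11a of 0.04 (-0.24 to 0.32) and Spib of -0.43 (-1.04 to 0.19), and each interval spans 0. Irf8 was lower, with a log2 ratio of -0.42 (-0.52 to -0.32), and was -0.30 in cells with no Siglech UMI. None of the 11 listed factors with at least 100 UMIs passed 1.5-fold, and the list's median was 0.03. Of the 20 listed surface and identity genes with at least 100 UMIs, 1 was higher (Ly6a) and 3 were lower (Smim5, Dnajc7 and Ctsl), and the median over 33 genes was -0.29, against 0.10 in cells with no Siglech UMI. Of the 30 leading genes, 2 were 1.5-fold or more apart, Fgr higher and Ly6d lower. Fgr, a Src family kinase, was at 68.2 and 111 CPM, a log2 ratio of 0.70 (0.18 to 1.24). Ly6d, which the rule used, was at 2976 and 1984 CPM, -0.59 (-0.68 to -0.49). Cd7, also in the rule, was at 414 and 558 CPM. Besides Ly6d, Irf8 and Bst2, intervals lay below 0 for Upb1 (-0.51), Ccnd1 (-0.45), Atp2b4 (-0.44), Bcl2 (-0.43) and Cox6a2 (-0.35). The same held for Siglech (-0.35), AC140186.1 (-0.34) and Rnase6 (-0.30). Only Cd7 and Fgr had intervals above 0.

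Among genes with at least 100 UMIs, Ctsl had the lowest ratio after the 7 neutrophil genes. It had 133 UMIs in 44 control cells and 70 UMIs in 44 Tet2 KO cells (197 and 82.5 CPM), a log2 ratio of -1.26 (-1.70 to -0.83), while in cells with no Siglech UMI it was at 22.9 and 25.0 CPM. Smim5, a small membrane protein, was at 102 and 50.7 CPM, -1.01 (-1.60 to -0.44). Fyb, a T-cell and myeloid adaptor, was at 168 and 90.7 CPM, -0.89 (-1.32 to -0.45), and Pld4, an endosomal nuclease, at 233 and 143 CPM, -0.71 (-1.06 to -0.36). Ctsl, Smim5 and Fyb were also lower in cells with Ly6d at 0, which took a larger share of Tet2 KO members, and among cells with Ly6d alone Ctsl was at 231 and 98.0 CPM, Smim5 at 116 and 63.7 CPM and Fyb at 192 and 106 CPM. Mta3, a chromatin remodelling subunit, was at 104 and 43.6 CPM, Oser1, an oxidative stress gene, at 153 and 64.8 CPM, and Rock1, a kinase of the cytoskeleton, at 123 and 64.8 CPM. Sept1 was at 157 and 82.5 CPM.

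**Figure D5:**
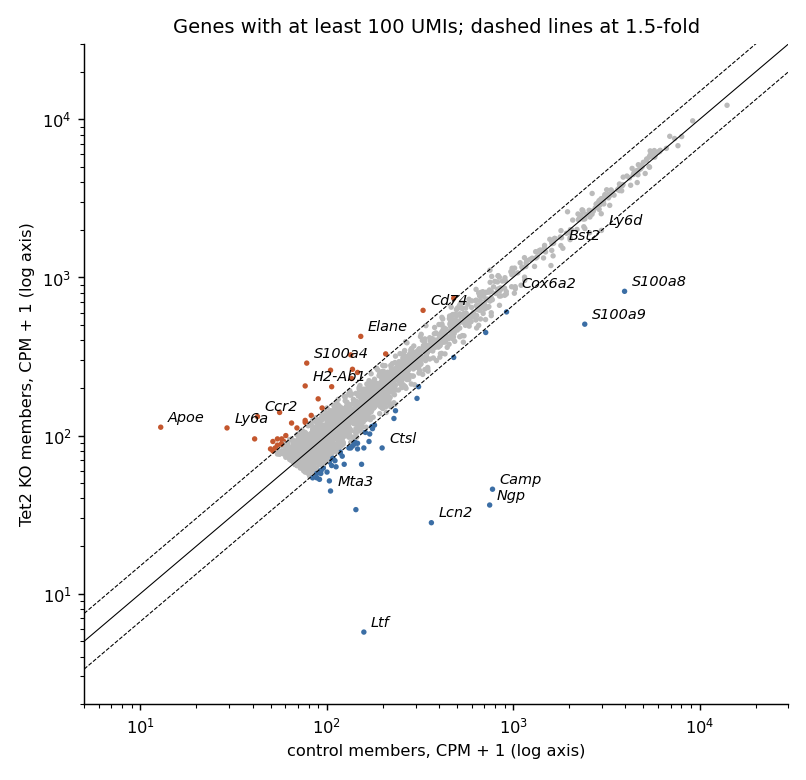
Tet2 KO (vertical) against control (horizontal) levels, as summed CPM plus 1 on log axes, of 1953 genes with at least 100 UMIs in the Siglech-positive cells. The solid line marks equal levels and the dashed lines 1.5-fold. Red points are the 36 higher and blue points the 53 lower genes, with the neutrophil genes Camp, Ngp, Lcn2, Ltf, S100a8 and S100a9 farthest below the line and Apoe, Ly6a and S100a4 among the farthest above it.

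The cytokine genes Il12a and Ccl4, both under 100 UMIs in all, were lower in Tet2 KO members. Il12a was at 89.0 and 38.9 CPM, a log2 ratio of -1.19 (-1.85 to -0.56), and Ccl4 at 57.8 and 14.1 CPM, -2.03 (-3.10 to -1.07). In cells with no Siglech UMI they were -0.88 and -1.01. Of 20 immediate early genes, 9 had at least 100 UMIs, 2 of these were 1.5-fold or more lower and none higher, and the median over 15 genes was -0.38, against -0.21 in the other cells. Ier2 was at 228 and 127 CPM, -0.84 (-1.21 to -0.48), and Fos at 540 and 389 CPM, -0.47 (-0.69 to -0.25). Both encode proteins that are induced within minutes of a stimulus.

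Lists of housekeeping processes were close. The median was 0.17 over 40 oxidative phosphorylation genes, 0.02 over 49 ribosomal protein genes, 0.0052 over 39 secretory pathway genes and -0.07 over 34 cell cycle genes, with 0, 0, 1 and 1 genes past 1.5-fold, all lower. In cells with no Siglech UMI they were 0.16, 0.03, 0.03 and -0.02. Mitochondrially encoded genes had a median of 0.12, against 0.05.

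Genes with a large genotype ratio in other cells of these libraries, a list known from earlier results of these data, were mixed in the members, with 1 of 4 genes at 100 UMIs or more past 1.5-fold higher (Apoe) and 3 lower (S100a8, S100a9 and Wfdc21), all carried by few cells. The median of the list was -1.45, and 0.06 without the 9 cells, where its sum was at 513 and 578 CPM in place of 6874 and 1747 CPM. Ctse, the protease cathepsin E, had 39 UMIs over 28 control cells and 3 UMIs over 3 Tet2 KO cells, a log2 ratio of -4.03 (-6.37 to -2.38). Gm47283 had 18 and 0 UMIs, at least 7.55-fold lower in Tet2 KO against a floor of 3 UMIs. Hoxa9 had 25 and 11 UMIs, -1.52 (-2.69 to -0.44), and Hoxa7 at 66.7 and 41.2 CPM, -0.69 (-1.37 to -0.03). Rpgrip1 was at 35.6 and 64.8 CPM, 0.86 (0.15 to 1.62), against 2.86 and 34.5 CPM in cells with no Siglech UMI, where its log2 ratio was 3.59. Its control level was therefore 12.4-fold above the other cells in the members, and its Tet2 KO level 1.88-fold.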

How the data were processed

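RNA of single mouse bone marrow cells was counted in 4 libraries, 1 per genotype and sort. The deposited values are counts of UMIs per gene and cell. The submitters' processing notes name Cell Ranger 3.1.0, Seurat and the build mm10, and the authors state limits per cell of 200 or more genes, 5000 or more UMIs and mitochondrial reads below 5%. Cells were tied to libraries by the deposited cell table. The members, gene lists and named genes were chosen with earlier results of these data known. UMIs were summed over members per library and scaled to CPM, with exact Poisson intervals for levels, exact binomial (Clopper-Pearson) intervals for shares and exact conditional binomial intervals for ratios, all at 95%. Named genes were the 15 highest and 15 lowest ratios of CPM + 1, the 30 leading genes over cells with no Siglech UMI on CPM + 10, all with at least 100 UMIs, and genes of the lists that carry a statement. A list's median took genes with at least 20 UMIs. MHC class II high cells also held under 2 UMIs of Cd79a and Cd79b, and cells rich in S100a8 and S100a9 had 2% or more of UMIs from them. No doublet caller was run, and members with most UMIs were left out as an alternative. The script was tested on simulated data. Python 3.11.15, numpy 2.4.6, scipy 1.17.1, R 4.3.3 and edgeR 4.0.16, which gave the trimmed mean (TMM) factors of 1 alternative, were used.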

Additional observations from a re-analysis of the deposited data

How the results depend on the processing

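No paired analysis was possible because each genotype has 1 library of this sort, which limits every difference. The share of members was 6.13% in control and 4.95% in Tet2 KO cells with Siglech at 1 or more, 3.17% and 1.86% at 3 or more, 3.43% and 1.99% after thinning, and 2.86% and 1.86% without members with 3 or more UMIs of other lineages. It was 3.22% and 2.58% with Cd7 required and 3.69% and 2.15% with Ly6d required. Against 36 higher and 53 lower genes, Siglech at 1 or more gave 88 and 115, no filter on counts 2567 and 2443, a minimum of 20 UMIs 552 and 538, and members with Ly6d at 0, an alternative chosen after seeing the data, 19 and 18. Lower genes numbered 24 with Siglech at 3 or more, 35 with Cd7 required and 35 without the 9 cells rich in neutrophil or granule RNA, also chosen after seeing the data. TMM factors gave 44 and 47. The MHC class II median of 0.69 was 1.21 with Siglech at 1 or more, 0.40 at 3 or more, 0.86 with Cd7 and 0.14 with Ly6d required (0.65 without 1 control cell rich in H2-Ab1, chosen after seeing the data), 1.63 after thinning, 1.54 without the 5% of members with most UMIs, 0.34 without members with UMIs of other lineages, 2.75 with Ly6d at 0, 0.43 with no filter and 1.05 as a mean over cells. The interferon-stimulated median of 0.27 was 0.36 with Siglech at 1 or more, 0.43 without members with UMIs of other lineages and 0.39 with a minimum of 100 UMIs. The surface and identity median of -0.29 was -0.19 with Siglech at 3 or more, -0.34 with no Cd7 or Ly6d criterion, -0.21 with Cd7 required, -0.38 without members with UMIs of other lineages and -0.019 with Ly6d at 0. The log2 ratios on CPM + 1 that turned direction were Ctsg (-1.07), Ngp (0.10), Camp (0.022) and S100a9 (0.064) without the 9 cells, and Ngp (0.51) and Dntt (0.11) without members with UMIs of other lineages. The cause of the changes was not tested.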
